A study of Saccharomyces cerevisiae with 20 samples.

Results

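The 4 genes described here serve the uptake of proline from the medium and its oxidation to glutamate in S. cerevisiae. PUT4 (YOR348C) encodes the high-affinity proline permease of the plasma membrane, PUT1 (YLR142W) the mitochondrial proline oxidase, PUT2 (YHR037W) the mitochondrial dehydrogenase that turns the product of Put1 into glutamate, and PUT3 (YKL015W) the transcription factor that activates PUT1 and PUT2. They were chosen by gene symbol, with the comparison of late stationary phase (SP) cultures already known, so late SP levels are given as a description and were not tested. Each gene is read by 1 probe set, and 4 of 4 passed the filter on low signals, out of 9335 features on the array and 6067 probe sets of protein-coding genes tested.

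As background, proline is a poor nitrogen source, taken up and oxidised when better sources such as ammonium run out. Put1 passes the electrons of proline to ubiquinone in the inner mitochondrial membrane, so that proline oxidation depends on respiration, and yeast fermenting without oxygen leaves proline largely unused. Transcription of PUT4 is subject to nitrogen catabolite repression. Put3 sits on the PUT1 and PUT2 promoters also without proline, and becomes an activator when proline is present.

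The data came from 20 Affymetrix YG-S98 arrays, each hybridized with RNA from 1 sample of a bioreactor batch culture of the haploid laboratory strain CEN.PK113-7D (MATa MAL2-8C SUC2), grown at 30°C on synthetic medium in which glucose, at 20 g/L, was the only carbon source given. Aerobic cultures were sparged with air and sampled in exponential phase, late exponential phase, diauxic shift, post-diauxic phase, early SP and late SP. Anaerobic cultures were sparged with nitrogen and sampled in exponential phase, at the end of exponential phase, in early SP and in late SP. Each regime had 2 independent cultures, called culture 1 and culture 2, which were sampled at every condition, so the 20 samples come from 4 cultures. The anaerobic medium alone contained growth factors in ethanol, Tween 80 at 420 mg/L and ergosterol at 10 mg/L, so these additions and the lack of oxygen cannot be told apart when the regimes are compared. Anaerobic cultures have no post-diauxic phase, and proline itself was not analysed here.

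Values are linear signals, which the authors scaled to a common average for each array. Signals below 12 were set to 12 for the tests, and log2 differences were tested with limma on all 20 arrays. To be called, a difference needed a fold of at least 2 and an adjusted p (Benjamini-Hochberg, over the 6067 probe sets) below 0.05. A signal depends on the probes, so levels are compared between conditions for 1 gene and not between genes. Several of the 13 tested comparisons use the same arrays and are not independent of each other.

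Marker genes followed the labels. ANB1, a hypoxic gene, ranged from 1.8 to 209.1 on the aerobic arrays and from 1810 to 10912.5 on the anaerobic arrays. CYC1, for respiratory cytochrome c, ranged from 1310.6 to 5921.2 on the aerobic arrays and from 52.7 to 207.5 on the anaerobic arrays. Between 1823 and 2822 features per array lay below 12. For ACT1, the ratio of 3' over 5' probe set signal, which measures RNA integrity, was 2.1 and 2.68 in aerobic late SP and between 1.2 and 2.03 in the other conditions. The ratio of SPT15, another control transcript, was 5.2 and 6.81 in aerobic late SP, in a range of 2.36 to 7.74, against 5.24 in anaerobic exponential culture 1. Its highest value, 7.74, was in aerobic late exponential culture 2. The ratio of a further control transcript, SRB4, was low in aerobic late SP, 2.85 and 3.7 in a range of 2.7 to 11.2. In comparisons of stationary with exponential cultures or of the regimes after glucose exhaustion, the median of all probe sets lay up to 0.21 from 0 on the log2 scale.

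**Figure D1:**
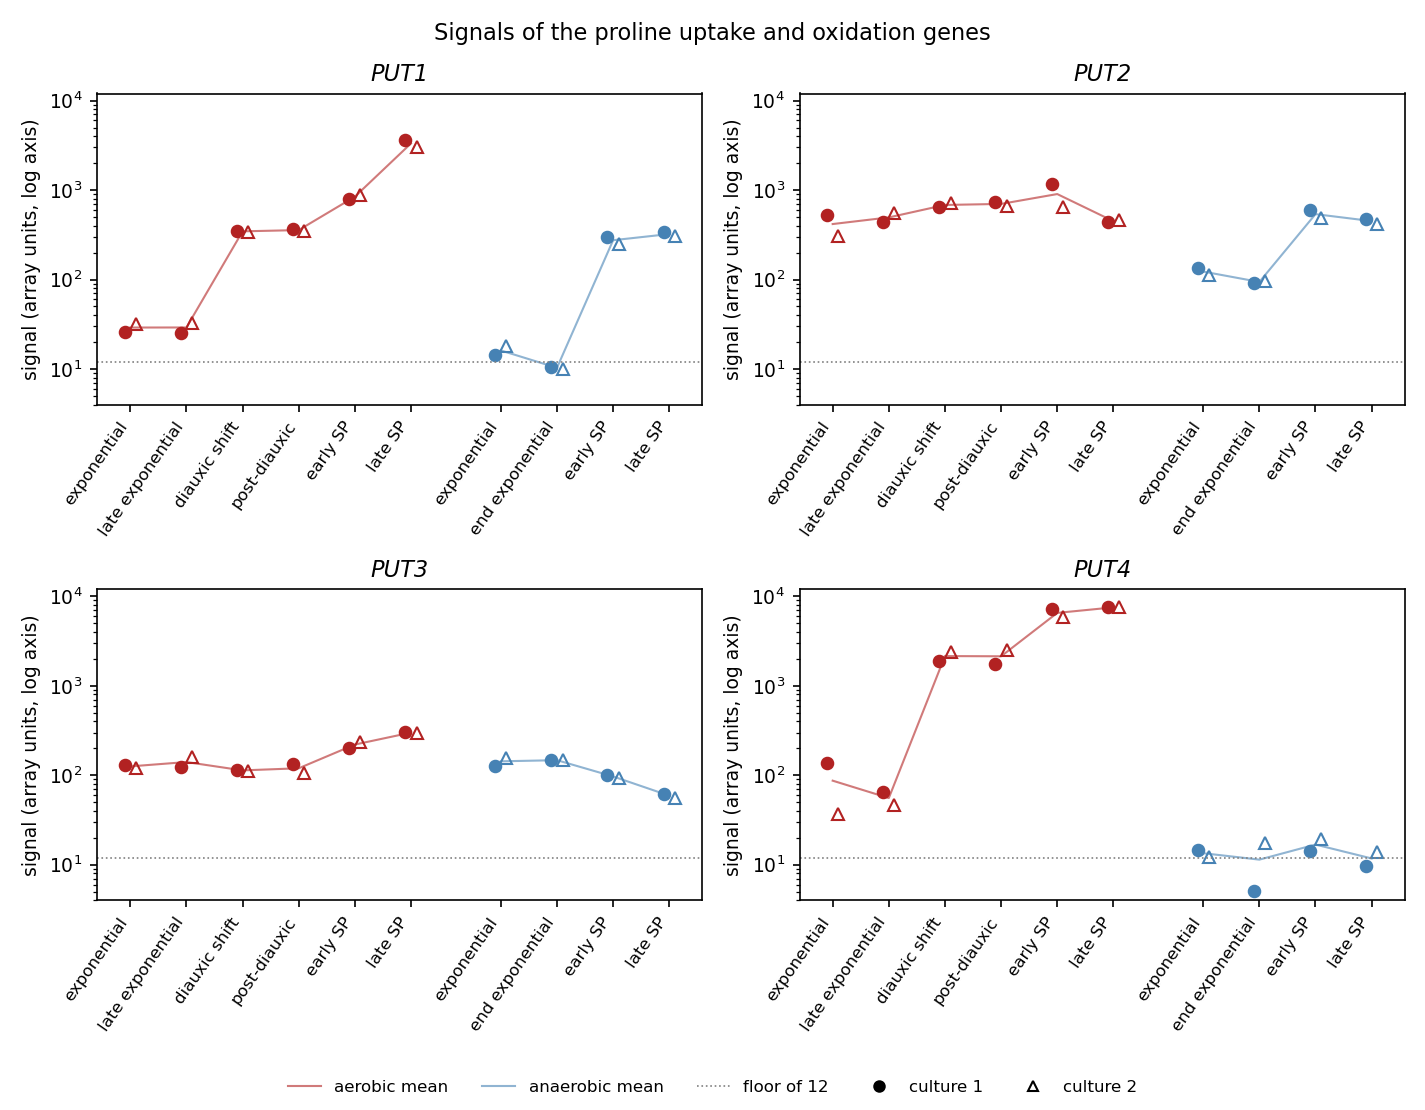
Signals of PUT1, PUT2, PUT3 and PUT4 (vertical log axis, array units) in the 6 aerobic and 4 anaerobic conditions (horizontal axis). Each symbol is 1 sample of a culture, lines join the means of 2 cultures, and the dotted line is the floor of 12. PUT4 lies between 5.1 and 19.4 in all anaerobic samples and reaches 7536.2 in aerobic late SP.

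PUT4, the proline permease, had the widest range of the 4 genes. In aerobic exponential cultures its signal was 136.7 in culture 1 and 37.3 in culture 2, and in late exponential cultures 65.2 and 46.1. It was 1911.9 and 2385.2 at the diauxic shift and 1749.7 and 2524.9 in the post-diauxic phase. It was 7126.5 and 5931.5 in aerobic early SP and 7520.9 and 7536.2 in late SP. The aerobic samples fall into 3 levels that do not overlap, low on glucose, intermediate from the diauxic shift to the post-diauxic phase, and high in SP.

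In anaerobic cultures PUT4 stayed close to the floor throughout. Its signal was 14.7 and 12.2 in exponential phase and 5.1 and 17.7 at the end of exponential phase. It was 14.2 and 19.4 in early SP and 9.8 and 13.7 in late SP. The 4 anaerobic conditions overlap in their order, and every anaerobic sample was below every aerobic sample.

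PUT1, the proline oxidase, was low during growth on glucose in both regimes. In aerobic cultures its signal was 26.2 and 31.9 in exponential phase and 25.4 and 32.8 in late exponential phase. It was 351.2 and 339.8 at the diauxic shift, 363.4 and 350.1 in the post-diauxic phase and 797.3 and 889.3 in early SP. In late SP it was 3633.2 and 3010.7, above all other conditions. The exponential and late exponential cultures overlap, as do the diauxic and post-diauxic cultures.

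Without oxygen PUT1 was low during growth and well above the floor in SP. Its signal was 14.3 and 17.9 in exponential phase and 10.6 and 10.0, both under the floor, at the end of exponential phase. It was 297.4 and 252.4 in early SP and 335.9 and 308.6 in late SP. Anaerobic SP cultures were above all aerobic and anaerobic exponential cultures and below all aerobic cultures from the diauxic shift on.

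PUT2, which completes the oxidation to glutamate, was the steadier of the 2 enzymes. In aerobic cultures its signal was 525.1 and 308.5 in exponential phase, 436 and 552.9 in late exponential phase, and 649.2 and 713.6 at the diauxic shift. It was 732.3 and 667.2 in the post-diauxic phase, 1161.2 and 642.8 in early SP and 439.6 and 457.6 in late SP. The 2 early SP cultures differed more from each other than the diauxic cultures did from the post-diauxic cultures.

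In anaerobic cultures PUT2 fell into a low and a high level. Its signal was 132.9 and 112.4 in exponential phase and 92.2 and 95.6 at the end of exponential phase. It was 591.9 and 483.9 in early SP and 478.7 and 421 in late SP. The 4 samples from anaerobic exponential and end exponential phase were the lowest of all 20 samples, and the anaerobic SP samples lay within the range of the aerobic ones.

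PUT3, the activator, had the narrowest range of the 4. In aerobic cultures its signal was 129.5 and 121.8 in exponential phase, 122.9 and 158.1 in late exponential phase, 113.8 and 112.9 at the diauxic shift and 134.6 and 104.8 in the post-diauxic phase. It was 204.1 and 236.9 in aerobic early SP and 300.8 and 298.9 in late SP. In anaerobic cultures it was 128.5 and 157.9, then 146.7 and 148.1, then 101.9 and 92.0 in early SP, and 62.3 and 56.0 in late SP. The highest and the lowest levels of PUT3 were both in late SP, with oxygen and without. In the middle of its order, the exponential conditions of both regimes and the aerobic diauxic and post-diauxic conditions overlapped each with the next.

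Growth on glucose with and without oxygen was compared first. In exponential phase, 2 of the 4 genes were called higher in aerobic cultures, where 5.08% of all probe sets were called higher. PUT2 was higher by 1.72 on the log2 scale, a 3.29-fold difference (standard error 0.27, adjusted p = 0.000374 from limma, 2 cultures per condition). PUT4 was 5.33-fold higher, by 2.41 (standard error 0.42, adjusted p = 0.001). PUT1 differed by 0.85, a fold of 1.81 (adjusted p = 0.00448), which is under the fold threshold. PUT3 differed by -0.18 (adjusted p = 0.634).

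Near the end of growth on glucose, 3 of the 4 genes were called higher in aerobic late exponential than in anaerobic end exponential cultures, against 6.05% of all probe sets. PUT2 was higher by 2.39 (standard error 0.27, adjusted p = 1.07e-05). PUT1 was at least 2.41-fold higher (adjusted p = 0.000128), a lower bound because both anaerobic cultures lay under the floor. PUT4 was higher by 1.91 (standard error 0.42, adjusted p = 0.00554), and PUT3 differed by -0.08 (adjusted p = 0.886).

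These exponential phase calls of PUT1 and PUT4 rest on low signals. With a floor of 30, PUT4 differed by 1.25 in exponential phase (adjusted p = 0.105) and by 0.87 in the later pair (adjusted p = 0.276), and PUT1 by 0.06 (adjusted p = 0.88). That value of PUT1 was fixed near 0 by the floor, since its aerobic signals in the later pair were 25.4 and 32.8. Fitted on the 4 arrays compared alone, the exponential phase differences of PUT2 and PUT4 had adjusted p = 0.193 and 0.31. In the later pair, those of PUT1 and PUT4 had adjusted p = 0.0817 and 0.111. Leaving out culture 1 of the aerobic exponential condition gave 1.48 for PUT4, and leaving out culture 2 gave 3.35. Without culture 1 at the anaerobic end of exponential phase, PUT4 differed by 1.63 in the later pair (adjusted p = 0.0732).

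The end of glucose was then followed in each regime. No probe set of the 6067 (0%) was called between aerobic late exponential and exponential cultures with limma, and 198 had an unadjusted p below 0.05. In anaerobic cultures 0.478% were called between the end of exponential phase and exponential phase, and the 4 genes differed by -0.41 (PUT1), -0.38 (PUT2), 0.05 (PUT3) and 0.12 (PUT4), with adjusted p of 0.584 or more. At the diauxic shift of aerobic cultures, 2 of the 4 genes were called higher than in late exponential phase, where 19.4% of all probe sets were called higher. PUT4 rose 39-fold, by 5.28 (standard error 0.42, adjusted p = 1.27e-07). PUT1 rose 12-fold, by 3.58 (standard error 0.18, adjusted p = 5.34e-10). PUT2 differed by 0.47 (adjusted p = 0.156) and PUT3 by -0.30 (adjusted p = 0.172).

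Between anaerobic early SP and the end of exponential phase, 2 of the 4 genes were called higher, where 23.9% of all probe sets were. These were PUT1 and PUT2. PUT1 rose at least 22.8-fold (adjusted p = 3.82e-11), again a lower bound. PUT2 rose 5.7-fold, by 2.51 (standard error 0.27, adjusted p = 1.09e-06). PUT4 differed by 0.19 (adjusted p = 0.72), and PUT3 by -0.61 (adjusted p = 0.00667), under the fold threshold.

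**Figure D2:**
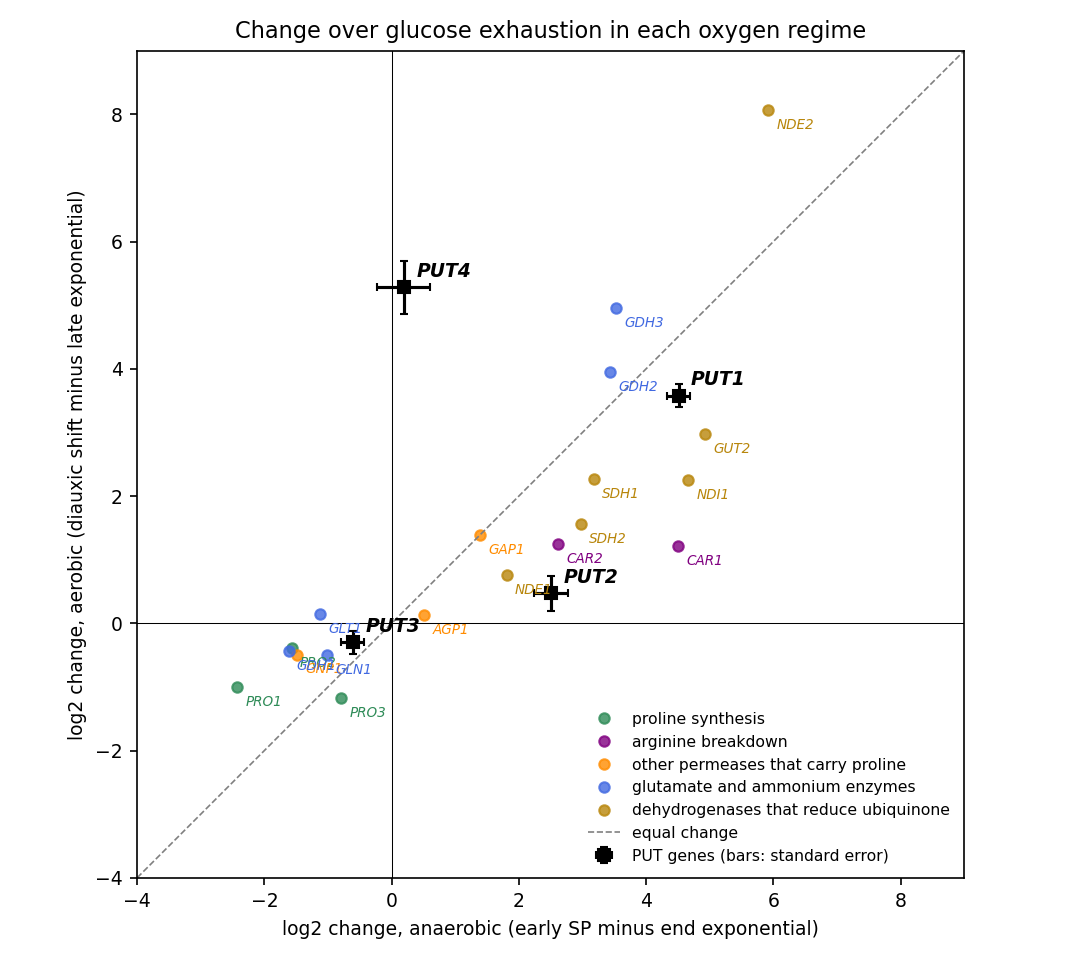
Log2 change from the end of exponential phase to after glucose exhaustion, in anaerobic cultures (horizontal axis) and in aerobic cultures (vertical axis), for the PUT genes (black squares with standard errors) and genes of related lists (coloured points). On the dashed line both changes are equal. PUT4 lies at 0.19 and 5.28, PUT1 at 4.51 and 3.58, and PUT2 at 2.51 and 0.47.

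The difference between the regimes in this change was tested itself, as aerobic minus anaerobic change, and 2 of the 4 genes passed, against 19.2% of all probe sets. The 2 genes differed in opposite directions. The change of PUT4 was larger in aerobic cultures by 5.10 (standard error 0.60, adjusted p = 3.95e-05). This is an upper limit, since 1 of the 2 anaerobic end exponential signals lay under the floor, and with a floor of 1 the difference was 4.48 (adjusted p = 0.00215). The change of PUT2 was smaller in aerobic cultures, a difference of -2.04 (standard error 0.38, adjusted p = 0.00175). PUT1 had a difference of -0.93 (standard error 0.26, adjusted p = 0.017), under the fold threshold and an upper limit because of the floor. It passed in 5 alternatives, but the one with no fold threshold left the difference unchanged and passed by its adjusted p alone. The others gave -1.15 for a floor of 1 (adjusted p = 0.00764) and -1.17 for quantile normalization (adjusted p = 0.00611). They also gave -1.05 without culture 2 of anaerobic early SP and -1.12 without culture 1 of aerobic late exponential phase. PUT3 had a difference of 0.31 (adjusted p = 0.397). The same test for the step from exponential to late or end exponential phase called 0.0165% of all probe sets and none of the 4 genes.

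After these steps, aerobic diauxic cultures and anaerobic early SP cultures, both past the end of glucose, had a called difference in 1 of the 4 genes, where 15.9% of all probe sets were called higher in the aerobic cultures. PUT4 was 129-fold higher, by 7.01 (standard error 0.42, adjusted p = 8.84e-09). With a floor of 30, above both anaerobic signals, the fold was at least 71.2. PUT1 differed by 0.33 (adjusted p = 0.153), PUT2 by 0.35 (adjusted p = 0.321) and PUT3 by 0.23 (adjusted p = 0.323). The sample labels give no times, so the 2 conditions may differ in how long glucose had been gone.

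Aerobic cultures then went through ethanol consumption into SP. In the step from the diauxic shift to the post-diauxic phase, the differences were 0.05 for PUT1, 0.04 for PUT2, 0.07 for PUT3 and -0.02 for PUT4 (adjusted p between 0.845 and 1), and none was called, against 11% of all probe sets. From the post-diauxic phase to early SP, 2 of the 4 were called higher, against 6.81%. PUT1 rose by 1.24 (standard error 0.18, adjusted p = 8.84e-05) and PUT4 by 1.63 (standard error 0.42, adjusted p = 0.0078). PUT3 differed by 0.89 (adjusted p = 0.00121), under the fold threshold, and PUT2 by 0.31 (adjusted p = 0.42). For PUT4 the adjusted p was 0.0567 without culture 1 of early SP and 0.0732 without culture 1 of the post-diauxic phase.

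In early SP, 3 of the 4 genes were called higher in aerobic than in anaerobic cultures, against 16.1% of all probe sets. PUT4 was 392-fold higher, by 8.61 (standard error 0.42, adjusted p = 5.65e-10). With a floor of 30, above all anaerobic signals of PUT4, the fold was at least 217. PUT1 was higher by 1.62 (standard error 0.18, adjusted p = 4.43e-06) and PUT3 by 1.18 (standard error 0.18, adjusted p = 7.23e-05). PUT2 differed by 0.69 (adjusted p = 0.0476), under the fold threshold, and by 1.12 (adjusted p = 0.00586) without culture 2 of aerobic early SP. With quantile normalization PUT3 was higher by 0.96, under the fold threshold.

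Over the whole course from exponential phase to early SP, the aerobic minus the anaerobic change was called above 0 for 2 of the 4 genes, against 15.8% of all probe sets. The difference was 6.20 for PUT4 (adjusted p = 3.21e-06), between changes of 6.51 and 0.31. It was 1.37 for PUT3 (adjusted p = 0.000923), between changes in opposite directions of 0.81 in aerobic and -0.56 in anaerobic cultures. It was 0.77 for PUT1 (adjusted p = 0.0344), under the fold threshold, and -1.03 for PUT2 (adjusted p = 0.0526). With a floor of 30 it was 1.58 for PUT1 (adjusted p = 1.1e-05). That floor reduced the exponential phase difference of PUT1 to 0.04, so this value is almost only its early SP difference of 1.62. PUT2 passed in 5 alternatives, with values from -1.46 without culture 1 of aerobic early SP (adjusted p = 0.0092) and -1.41 without culture 2 of aerobic exponential phase (adjusted p = 0.00877) to -1.03.

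**Figure D3:**
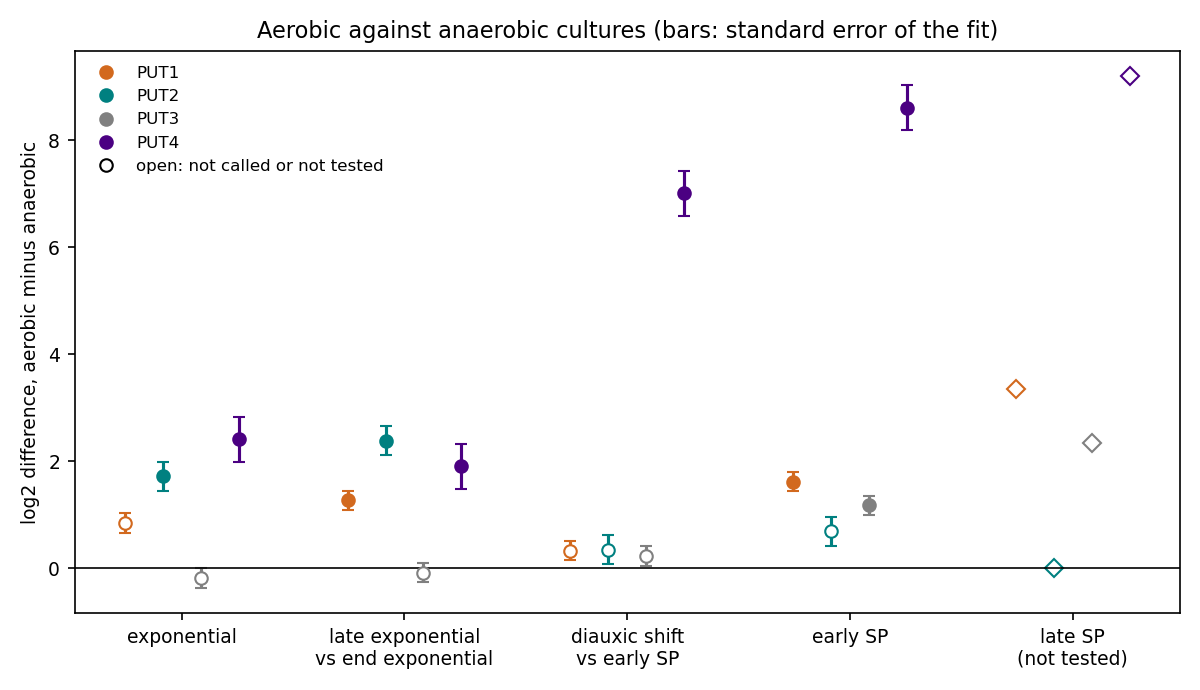
Log2 difference of aerobic minus anaerobic cultures (vertical axis) for the 4 genes at 5 pairs of conditions (horizontal axis). Filled symbols were called, open circles were not, diamonds for late SP were not tested, and bars are standard errors of the fit. PUT4 goes from 2.41 in exponential phase to 8.61 in early SP, and PUT2 from 1.72 to 0.69.

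Late SP is described without a test. PUT4 was higher in aerobic than in anaerobic late SP 587-fold with the floor of 12, which replaced 1 of the 2 anaerobic signals, and at least 251-fold with a floor of 30, above both. PUT1 was 10.3-fold higher. PUT3 was 5.08-fold higher, and PUT2 differed by 0.00 on the log2 scale. Of all probe sets, 18.4% were at least 2-fold higher in aerobic late SP and 13.2% at least 2-fold lower. From early to late SP, PUT1 was 3.93-fold higher in aerobic cultures, and PUT2 differed by -0.95, PUT3 by 0.45 and PUT4 by 0.21. In anaerobic cultures the same step gave 0.23 for PUT1, -0.25 for PUT2, -0.71 for PUT3 and -0.37 for PUT4. The ACT1 ratio was high in both cultures of aerobic late SP and that of SPT15 in culture 2, and that of SRB4 was not. The part that RNA integrity has in these values was not tested.

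The 4 genes did not follow 1 common pattern. Over the 10 condition means, Pearson's r of log2 signals was 0.74 between PUT1 and PUT4, 0.71 between PUT1 and PUT2, and 0.63 between PUT2 and PUT4. It was 0.62 between PUT3 and PUT4, 0.26 between PUT1 and PUT3, and -0.03 between PUT2 and PUT3. These values describe 10 conditions that share cultures and carry no test.

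For each member, the 5 genes with the most similar pattern were picked from 5265. Over the 10 condition means, those most like PUT4 were SIT1 (r = 0.994), YTP1 (0.989), PDH1 (0.98), RIM4 and YAT1 (both 0.979). Those most like PUT1 were ATG32 (0.991), ISU1, NUM1 and PEX19 (each 0.988) and RGT1 (0.986). For PUT2 they were RIP1 (0.988), ATP3 (0.984), CYT1 (0.983), INH1 and ATP16 (both 0.982). For PUT3 they were CHS1 (0.982), PSF3 (0.958), CHS6 (0.931), CYC8 (0.93) and RRD1 (0.928). The number of genes with r above 0.9 was 426 for PUT1, 135 for PUT2, 132 for PUT4 and 14 for PUT3.

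Genes around the pathway were read next, beginning with the route in the opposite direction. PRO1, PRO2 and PRO3 encode the 3 enzymes of proline synthesis from glutamate. Over glucose exhaustion, 2 of the 3 were called lower in aerobic cultures, against 12.7% of all probe sets. PRO1 fell by 1.00 and PRO3 fell by 1.18 on the log2 scale (adjusted p = 0.000338 and 0.000101). The list median was -1 against 0.17 over all probe sets. In anaerobic cultures PRO1 fell by 2.43 and PRO2 fell by 1.57 (adjusted p = 3.97e-08 and 4.25e-06), with a list median of -1.57 against 0. Of all probe sets, 23.8% were called lower in that anaerobic step. From the post-diauxic phase to aerobic early SP, PRO1 fell by 1.45 (adjusted p = 2.51e-05).

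Arginine is an internal source of proline, since CAR1, for arginase, and CAR2, for ornithine transaminase, turn it into the intermediate that Pro3 reduces to proline. Both rose over glucose exhaustion in each regime, where 19.4% (aerobic) and 23.9% (anaerobic) of all probe sets were called higher. In anaerobic cultures CAR1 rose by 4.50 (standard error 0.18, adjusted p = 3.82e-11) and CAR2 by 2.61 (standard error 0.39, adjusted p = 3.07e-05). In aerobic cultures CAR1 rose by 1.21 and CAR2 by 1.25 (adjusted p = 5.26e-05 and 0.0145), and they rose again into early SP, by 1.41 and 2.72. The aerobic change of CAR1 over glucose exhaustion was smaller than the anaerobic one by 3.29 (standard error 0.26, adjusted p = 4.06e-07). For CAR1, as for PUT2, the change was the larger one without oxygen. Before it, both were higher in aerobic late exponential than in anaerobic end exponential cultures, CAR1 by 1.89 and PUT2 by 2.39. Between aerobic diauxic and anaerobic early SP cultures, CAR1 differed by -1.40 (adjusted p = 2.52e-05 from limma), higher without oxygen, and PUT2 by 0.35, not called.

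Of the 3 other permeases that also carry proline, GAP1, the general amino acid permease, rose by 1.39 over glucose exhaustion in both regimes (adjusted p = 0.00146 in aerobic and 0.000882 in anaerobic cultures). In the same step GNP1 fell by 1.49 in anaerobic cultures (adjusted p = 0.00307). GAP1 rose by a further 2.51 into aerobic early SP (adjusted p = 1.7e-05). In early SP its signal was 3172.7 to 3441.4 in aerobic and 375.7 to 415.9 in anaerobic cultures, a difference of 3.06 (adjusted p = 1.41e-06). GNP1 was higher in aerobic early SP by 1.47 (adjusted p = 0.00601), whereas AGP1 differed by -2.15 (adjusted p = 3.5e-07), higher in anaerobic cultures. Of all probe sets, 16.1% were called higher in aerobic early SP and 9.02% lower. In late SP, which was not tested, AGP1 was instead higher in aerobic cultures, with signals of 530.4 to 624.6 against 217.8 to 238.8. GAP1 and GNP1 were higher in aerobic cultures there too.

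Other dehydrogenases hand electrons to ubiquinone, as Put1 does, and 6 genes for them were read. In anaerobic early SP, 6 of the 6 were called higher than at the end of exponential phase, against 23.9% of all probe sets. The list median was 3.92 against 0 over all probe sets. NDE2, an external NADH dehydrogenase, rose by at least 5.92 on the log2 scale, since both end exponential cultures lay under the floor. GUT2, for glycerol phosphate dehydrogenase, rose by 4.92, NDI1, the internal NADH dehydrogenase, by 4.66, and SDH1, of succinate dehydrogenase, by 3.18 (adjusted p = 8.96e-06, 1.24e-07 and 5.03e-05). In aerobic cultures 5 of the 6 were called higher at the diauxic shift, against 19.4% of all probe sets. The list median was 2.26 against 0.17, and NDE1, an external NADH dehydrogenase, differed by 0.76 there. During exponential growth 5 of the 6 were called higher in aerobic cultures, with a list median of 2.21 against 0 and 5.08% of all probe sets called higher. NDE1 was higher by 5.10 (adjusted p = 1.26e-08).

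Among 5 enzymes that join glutamate and ammonium, GDH2 and GDH3 were called higher over glucose exhaustion in both regimes. Of all probe sets, 19.4% were called higher in the aerobic and 23.9% in the anaerobic step. GDH2, the glutamate dehydrogenase that releases ammonium from glutamate, rose by 3.95 in aerobic and 3.44 in anaerobic cultures (adjusted p = 1.02e-08 and 3.15e-08). GDH3, a dehydrogenase that forms glutamate, rose by 4.96 and 3.53 (adjusted p = 4.9e-09 and 1.23e-07). In anaerobic cultures GDH1 fell by 1.62, GLT1 fell by 1.12 and GLN1 fell by 1.01 (adjusted p = 7.94e-05, 1.23e-05 and 0.01), where 23.8% of all probe sets were called lower.

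PUT4 belongs to the genes under nitrogen catabolite repression, and 11 others of that kind were read. In early SP 7 of the 11 were called higher in aerobic cultures and 2 lower, against 16.1% and 9.02% of all probe sets. The list median was 1.78 against 0.21 over all probe sets. For the difference between the regimes over glucose exhaustion, where PUT4 had 5.10, 1 of the 11 was called above 0 and 1 below. Of all probe sets, 12.6% were called above 0 and 6.64% below, and the list median was -0.63 against 0.13. In early SP itself, MEP2, an ammonium permease, was higher in aerobic cultures by 4.66, DAL3 by 4.35, DAL5 by 3.18 and DAL2 by 2.82 (adjusted p = 9.17e-09, 2.24e-09, 3.62e-06 and 2.49e-06). UGA1 and UGA2, for the breakdown of GABA, were the 2 that were lower, with differences of -1.22 and -1.43 (adjusted p = 0.00227 and 0.000834). Of the 5 regulators of these genes, GLN3, an activator, and GZF3, a repressor, were called higher in aerobic early SP, by 1.22 and 1.40 (adjusted p = 0.00354 and 1.89e-05). Of 5 genes of the amino acid sensor at the plasma membrane, 1 was called there, PTR3, by 1.17 (adjusted p = 0.000206).

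**Figure D4:**
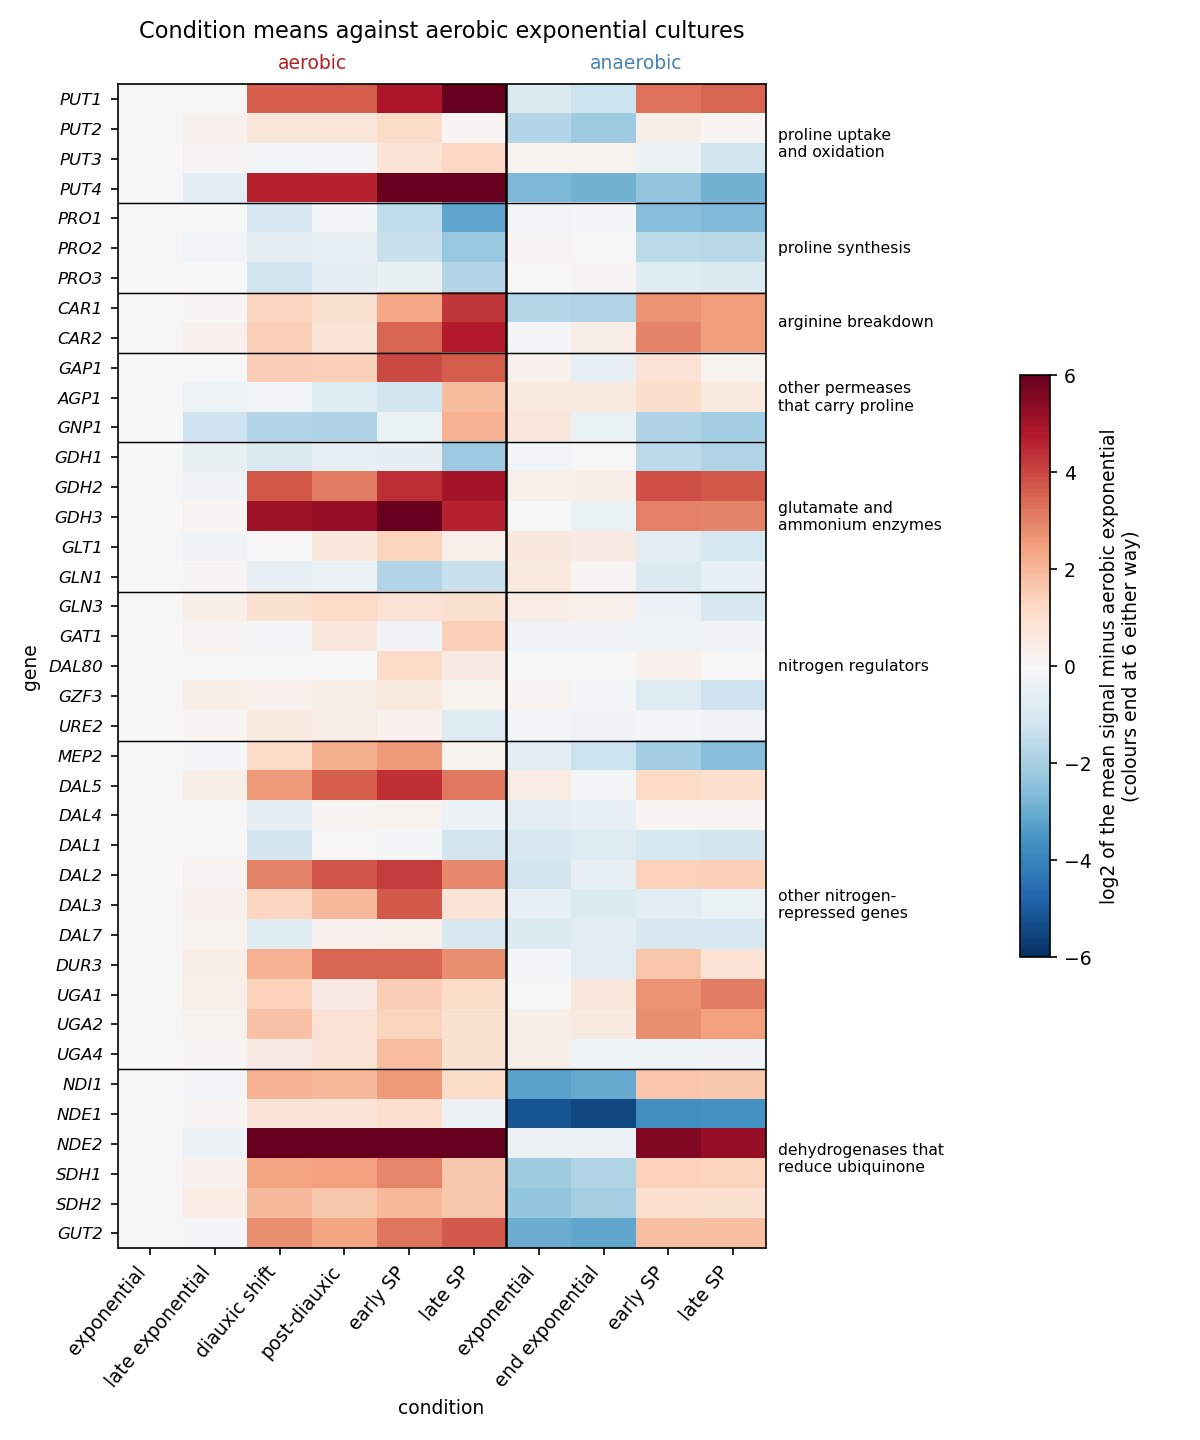
Log2 of the mean signal of 2 cultures (at least 12) in each of the 10 conditions (horizontal axis), minus that of aerobic exponential cultures, for the PUT genes and 7 lists of related genes (vertical axis), with red for higher and blue for lower. PUT4 is red from the aerobic diauxic shift on and blue in every anaerobic condition, whereas CAR1, GDH2 and PUT1 are red in SP of both regimes.

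Genes next to the 4 on the chromosomes were checked in early SP. The tested neighbours, RRN5, BRL1, RRF1, ATP7, URB1, PYK2 and CIN1, were not called between aerobic and anaerobic early SP. Of all probe sets, 25.1% were called there in either direction. BRL1 differed by 0.49 (adjusted p = 0.0307) and ATP7 by 0.68 (adjusted p = 0.038 from limma), both under the fold threshold.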

How the data were processed

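RNA of 20 samples, taken from duplicate aerobic and duplicate anaerobic batch cultures, was measured on 1-colour Affymetrix YG-S98 arrays. The deposited intensities are linear, 1 per probe set and array, from the array software of the authors, who brought each array to an average of 240. No further scaling was applied. The annotation table gave 1 gene symbol for 6504 of the 9335 features, several for 328 and did not list 2503.

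Features of protein-coding genes (6647) were kept, 12 was the floor, a value taken from the authors' methods, and 580 features below 20 on all arrays were left out. Log2 signals of the remaining 6067 were fitted with limma 3.58.1 (R 4.3.3) as 10 condition means over all 20 arrays, with 10 residual and 4.73 prior degrees of freedom and Benjamini-Hochberg adjustment. The number of arrays, 2 per condition, limits the precision. The procedure was also run on simulated data, with independent normal spread and changes only in probe sets with mean signals well above the floor. Changes near the floor and samples that share a culture were not simulated. Figures were drawn with matplotlib 3.10.9 in Python 3.11.15. Promoter and protein sequences were not analysed here.

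The members, the lists and the tests were chosen with earlier results of these data known. Beside the members, genes were named by a rule: the 5 genes most like each member, at most 4 called genes per list and comparison with the largest changes, and genes that check the labels. Values named beyond these limits were chosen after they were seen. Alternatives were other floors, filters, scalings, fits and thresholds, and leaving out each array in turn. The floor of 30 in late SP was added after the data were seen.

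Same-numbered samples of a regime are the same culture followed over time, by the labels and the study's sampling. Deviations from the condition means had a median correlation of 0.121 in aerobic cultures (15 pairs of time points, from -0.555 to 0.373) and 0.0935 in anaerobic cultures (6 pairs, from -0.003 to 0.179). Between the regimes a shared number pairs nothing.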

Additional observations from a re-analysis of the deposited data

Results flagged for a closer look

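The difference between aerobic and anaerobic log2 changes was tested itself in 2 steps, which share the anaerobic early SP arrays. Over glucose exhaustion 2 of the 4 genes were called, against 19.2% of all probe sets. From exponential phase to early SP 2 of the 4 were called, against 24.2%. PUT4 was called in both. Over glucose exhaustion, the aerobic change was larger than the anaerobic one by 5.1 for PUT4, and the difference was -2.04 for PUT2. From exponential phase to early SP, the aerobic minus the anaerobic change was 6.2 for PUT4 and 1.37 for PUT3. In the step over glucose exhaustion PUT4 was called in aerobic cultures and PUT2 in anaerobic cultures, while PUT1 rose in both and its difference of -0.93 was under the fold threshold. No condition has more than 2 cultures, so no single culture could be set apart from its group.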

How the results depend on the processing

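Of the 19 differences called for the 4 genes, none reversed under the 32 alternatives, of which 20 left out 1 array each. With a floor of 30, 1 of the 4 genes was called higher in aerobic exponential cultures (2 in the fit described) and 1 in late against end exponential phase (3). Here the anaerobic signals of PUT1 and PUT4 lie under that floor. The aerobic signals of PUT1 lie under or just above it, so PUT1 could not reach the fold threshold. With only the arrays compared, which leaves fewer samples for the spread, these counts were 0 and 1. From the post-diauxic phase to aerobic early SP, leaving out 1 array gave between 1 and 2 called genes. In the other comparisons the number of called members stayed within 1.5 times. Differences gained as well as lost calls, most often those between the regimes, in 5 alternatives each for PUT1 over glucose exhaustion and PUT2 from exponential phase to early SP. For PUT1 these include the alternative with no fold threshold, where the difference itself was unchanged.

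The culture number as a replicate block, or as a random block with a correlation of -0.003, changed no call of the 4 genes, and with the block PUT4 was higher in aerobic early SP by 8.61 (adjusted p = 8.24e-09). Over all probe sets, the 483 calls of exponential phase became 27 with only the arrays compared and 749 with no fold threshold, and the 549 of late against end exponential phase became 185 and 834. With no fold threshold, 5 later counts moved to 2635 (1360) for diauxic shift against anaerobic early SP, 2751 (1525) for early SP, 3213 (1946) at the diauxic shift, 1344 (665) in the post-diauxic phase and 2125 (1111) in aerobic early SP. Small counts also moved. For late against aerobic exponential phase, 0 became 1 with a floor of 1 and up to 127 without 1 array. For anaerobic end against exponential phase, 29 became 0 with only the arrays compared and 13 without 1 array. For the regime difference of these steps, 1 became between 0 and 16. For exponential phase, leaving out 1 array gave up to 862, and for the post-diauxic phase as few as 351.

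Quantile normalization lowered the share of called probe sets that were higher from 70.7% to 56% (diauxic shift against anaerobic early SP), from 64.1% to 51.7% (early SP) and from 60.4% to 46.7% (aerobic diauxic shift). For the regime differences it went from 65.5% to 53.5% and from 65.3% to 52.8%. The cause was not tested. PUT4 in anaerobic cultures and PUT1 at the end of anaerobic growth are limited by signals near the floor.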
